A study of Mus musculus with 9 samples.

Results

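S100 proteins are small calcium-binding proteins, and the levels of 8 genes that encode them were followed in a mouse blood progenitor line after knockdown of either of 2 transcription factors. The genes were S100a1, S100a4, S100a6, S100a8, S100a9, S100a10, S100a11 and S100a13, taken as every probe on the array whose accession belongs to one of them. Each had 1 probe, so that 8 of the 41174 probes and 8 of the 16535 genes that could be named were used. The line was FDCPmix, which self-renews in culture and can form several blood lineages. Cells kept in self-renewal conditions received lentivirus that encoded shRNA, a short hairpin that depletes the matching messenger RNA, directed at Gata2 (the Gata2 KD group, shGata2 LLX in the labels), shRNA directed at Pu.1 (the Pu.1 KD group, shPu1 LLX) or only empty vector (EV), which carries no hairpin. Pu.1 is the common name of Spi1. All 3 groups were sorted for viable cells with GFP 5 days after the virus, and 150 ng of their total RNA was labeled with Cy3 for single-color Agilent whole mouse genome arrays, 3 arrays per group and 9 in all. Each group thus holds transduced and sorted samples of a single cell line, and the sources used here name no second hairpin for either target.

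An S100 protein binds calcium through a pair of EF-hand loops, usually as a dimer, and then opens a surface that grips other proteins. In blood, S100A8 and S100A9 form the heterodimer calprotectin, a major cytosolic protein of neutrophils and monocytes that can be released and then acts on the receptors TLR4 and RAGE. The other family members act mostly inside cells, on myosin, annexins and calcium channels, and most S100 genes of the mouse lie side by side on chromosome 3. Levels are the log2 intensity of a probe minus the 75th percentile over its array, so a step of 1 is a doubling. Levels of different probes are not compared with each other, because probes differ in brightness. A change was called when its adjusted p was under 0.05 in limma, a linear model fitted to all 36585 probes that passed a filter on dim signal, with Benjamini-Hochberg adjustment over all of them. The error of each level is the SD over 3 arrays, and the number of arrays limits the precision. The sources state that samples were transduced in triplicate but not whether the 3 of a group came from separate starting cultures, so a p-value measures only the spread between these samples, part of which may be technical.

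Between 80.4% and 89.6% of an array's spots were well above background, and none was saturated. The arrays came from 3 slides with 1 array of each group on each slide, so differences are also given within slides, and the array least like the others was EV replicate 3 (mean correlation across probes of 0.960 with the others). The knockdowns took effect on their targets. Gata2 read 4.80 ± 0.27 in EV and 3.19 ± 0.36 in Gata2 KD, and Spi1 read -1.86 ± 0.21 in EV and -3.59 ± 0.06 in Pu.1 KD. All 8 S100 probes were well above background on all 9 arrays.

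The genes fall into 2 stretches of chromosome 3 in the RefSeq annotation of GRCm38.p6. The first holds 12 neighboring S100 genes, among them S100a1, S100a13, S100a4, S100a6, S100a8 and S100a9 in that order, and the second, beyond 56 other protein-coding genes, holds S100a11 and S100a10 side by side. The 250 bases before the annotated start site are shown for the 5 genes whose level was called changed in either knockdown. All 5 were called in Gata2 KD, while S100a11 was not called in Pu.1 KD. Capitals mark, on either strand, the letters GGAAGTG (a form of the sequence that PU.1 binds), AGATAA or TGATAA (for GATA factors), TTGCNNAA (for C/EBP factors) and TATAAA (the TATA box). The sequences are from RefSeq on GRCm38.p6, written 5′ to 3′ along the gene, and no 2 marked motifs overlapped.
S100a8, chr3:90668821-90669070, plus strand: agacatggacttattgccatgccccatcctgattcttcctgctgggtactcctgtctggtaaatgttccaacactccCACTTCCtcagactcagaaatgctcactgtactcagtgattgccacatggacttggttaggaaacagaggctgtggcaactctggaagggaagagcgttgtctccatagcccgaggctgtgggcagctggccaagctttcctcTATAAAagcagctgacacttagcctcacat
S100a9, chr3:90695722-90695971, minus strand: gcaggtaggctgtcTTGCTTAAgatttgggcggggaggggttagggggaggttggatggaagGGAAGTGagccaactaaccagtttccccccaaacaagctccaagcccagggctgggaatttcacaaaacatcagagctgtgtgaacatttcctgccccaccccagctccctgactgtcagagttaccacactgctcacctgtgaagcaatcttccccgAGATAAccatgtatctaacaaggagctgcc
S100a4, chr3:90603520-90603769, plus strand: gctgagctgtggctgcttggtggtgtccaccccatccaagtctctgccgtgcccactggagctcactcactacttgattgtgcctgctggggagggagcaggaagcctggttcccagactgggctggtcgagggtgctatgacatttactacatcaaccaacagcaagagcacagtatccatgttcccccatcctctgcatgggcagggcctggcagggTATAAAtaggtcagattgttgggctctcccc
S100a6, chr3:90612644-90612893, plus strand: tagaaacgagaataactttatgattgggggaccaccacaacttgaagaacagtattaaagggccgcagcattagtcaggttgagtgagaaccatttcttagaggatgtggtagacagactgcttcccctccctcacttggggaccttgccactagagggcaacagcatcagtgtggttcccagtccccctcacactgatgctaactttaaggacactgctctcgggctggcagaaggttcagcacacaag
S100a11, chr3:93520246-93520495, plus strand: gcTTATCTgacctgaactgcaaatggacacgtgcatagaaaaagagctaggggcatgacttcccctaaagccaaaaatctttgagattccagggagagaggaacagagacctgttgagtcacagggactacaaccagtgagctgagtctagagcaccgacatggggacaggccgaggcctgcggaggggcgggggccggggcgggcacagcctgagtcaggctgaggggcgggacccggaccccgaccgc

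GGAAGTG stood in the windows of S100a8 (173 bases before the start, reverse strand), S100a9 (188 bases before the start) and S100a4 (reverse strand, beginning at base 17 of the transcript and so past the printed part). It was found in 11% of 32851 windows of the same kind, which run from 250 bases before to 50 bases after a start. TATAAA, found in 13.6% of all windows, lay 30 bases before the start of S100a8, 31 bases before that of S100a4 and at base 1 of the annotated transcript of S100a9. AGATAA (11.2% of windows) lay 30 bases before the start of S100a9 and, on the reverse strand, 248 bases before that of S100a11, and TTGCNNAA (10.8%) lay 236 bases before the start of S100a9. TGATAA (9.05% of windows) was in no member's window. The windows of S100a6, S100a1 and S100a13 held none of these letters, and those of S100a1 and S100a13, which start in opposite directions, share 204 bases. These matches describe the letters only, and 7 of the 8 genes had a window in the table used.

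Gata2 KD raised 5 of the 8 S100 genes against EV and lowered none. S100a8 and S100a9, the calprotectin pair, rose most, by 12.1-fold and 6.74-fold, followed by S100a4, S100a11 and S100a6. Over all probes tested, 2.96% were called higher and 2.24% lower in this comparison. The median change of the 8 genes was 0.84 on the log2 scale, beside -0.09 over all tested probes. The 8 genes were chosen with earlier results of these data known, so this contrast is no test of the S100 family. In the list of other S100 genes, described further on, none was called in Gata2 KD (median change -0.18). Those probes were dim on average, with a mean log2 level of -3.28 to -2.09 on the EV arrays, and changes in dim probes are less sure. Neutrophil and monocyte markers other than S100 genes rose on the same arrays (10 of 11 and 7 of 8, given further on). The monocyte list includes Mrc1, which passed the filter on dim signal only through the Gata2 KD arrays.

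S100a8 encodes one chain of calprotectin. Its level was 2.59, 2.56 and 2.41 in EV replicates 1 to 3 and 6.51, 5.97 and 5.88 in Gata2 KD replicates 1 to 3. Every Gata2 KD array was far above every EV array, and the log2 change was 3.60 (SE 0.24, adjusted p 7.58e-05), from 3.29 to 3.95 within slides. Its partner S100a9 read 5.64, 5.60 and 5.78 in EV and 8.60, 8.53 and 8.14 in Gata2 KD. The groups did not overlap, with a log2 change of 2.75 and an SE of 0.18 (adjusted p 7.58e-05, 2.503 to 3.004 within slides).

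S100a4 encodes a protein known for binding the heavy chain of nonmuscle myosin. It read 5.66, 5.59 and 5.79 in EV against 7.85, 7.79 and 7.51 in Gata2 KD. The increase was 2.04 log2 units (SE 0.14, 4.10-fold, adjusted p 8.43e-05, 1.85 to 2.26 within slides). All 3 Gata2 KD arrays lay above the 3 EV arrays. S100a11, whose protein binds annexin A1, read 2.23, 1.98 and 2.04 in EV and 3.17, 2.98 and 3.06 in Gata2 KD. Again no array of one group reached the other, and the change was 0.99 (SE 0.15, 1.98-fold, adjusted p 0.00681, 0.83 to 1.19 within slides).

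S100a6 encodes calcyclin, a partner of the ubiquitin ligase adaptor CACYBP. Its level was 6.02, 5.94 and 5.92 in EV against 6.85, 6.70 and 6.43 in Gata2 KD. The change was 0.70 (SE 0.15, 1.63-fold, adjusted p 0.0300, 0.42 to 0.91 within slides). The groups did not overlap, but the call was lost in 10 of 20 other settings, among them leaving out any EV array, Gata2 KD replicate 1 or 2, or Pu.1 KD replicate 1 or 3 (adjusted p from 0.0573 to 0.136). Its direction was upward in all 20.

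The other 3 genes were not called in Gata2 KD. S100a13, whose protein takes part in the release of FGF1, read 2.85, 2.91 and 3.10 in EV and 3.46, 3.38 and 3.19 in Gata2 KD. Those groups did not overlap, yet the change of 0.39 (95% interval 0.05 to 0.73) did not pass the adjustment (adjusted p 0.244). Including it, 6 of the 8 genes had groups that did not overlap, against 18.6% of all tested probes. S100a10 encodes p11, the light chain of the annexin A2 tetramer, and unlike its relatives does not need calcium to bind. Its change was 0.19 (95% interval -0.17 to 0.54, adjusted p 0.772). S100a1, known for its action on calcium handling in muscle, changed by 0.10 (-0.25 to 0.46, adjusted p 0.934). For these last 2 genes the EV and Gata2 KD arrays overlapped.

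**Figure D1:**
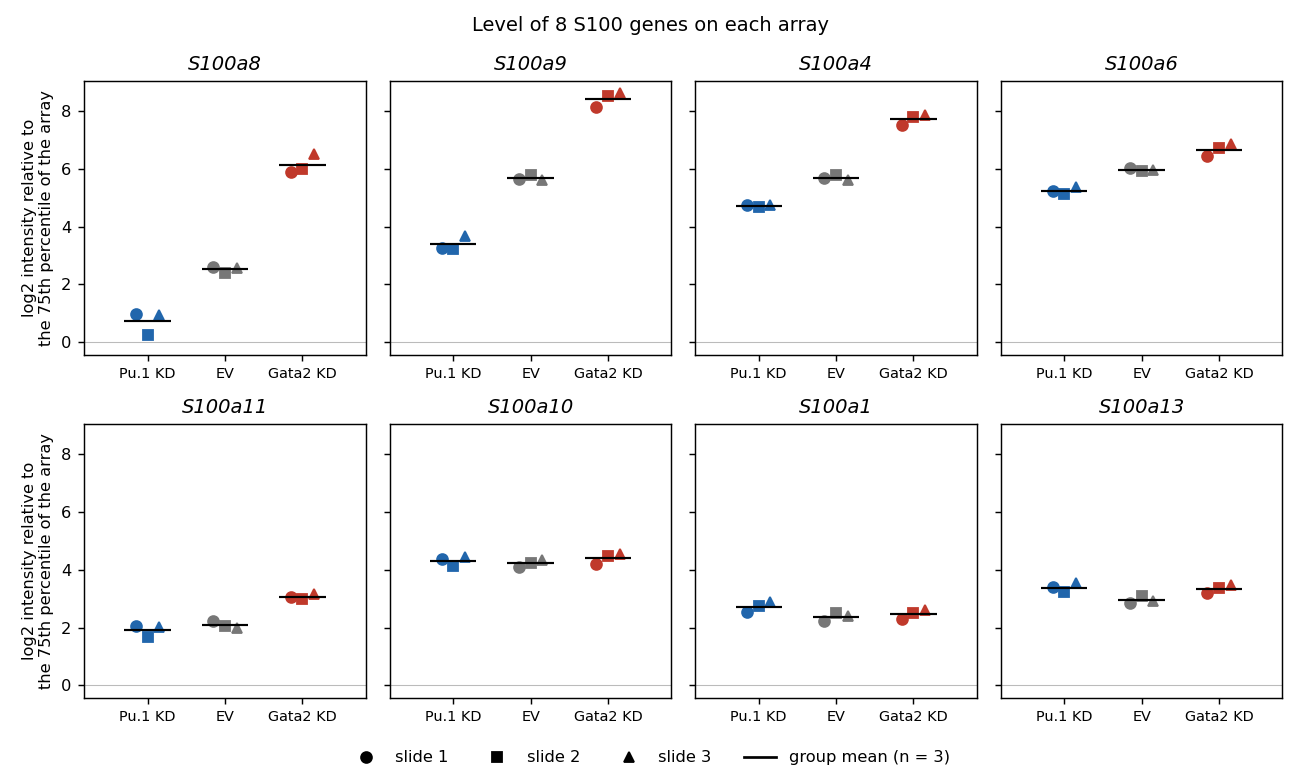
Level of each of the 8 S100 genes on each of the 9 arrays, in log2 units above the 75th percentile of that array, by group, with the slide as the marker shape and the group mean as a line (n = 3). S100a8, S100a9, S100a4 and S100a6 step upward from Pu.1 KD through EV to Gata2 KD, S100a11 is higher in Gata2 KD than in the other groups, and S100a10, S100a1 and S100a13 stay within a narrow band.

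Pu.1 KD lowered 4 of the 8 genes against EV and raised none. S100a9 fell most, to 4.88-fold below EV, followed by S100a8 at 3.48-fold, S100a4 at 1.95-fold and S100a6 at 1.65-fold. Of all tested probes 1.42% were called lower and 1.27% higher in this comparison. The median change of the 8 genes was -0.44, beside -0.04 over all tested probes. The choice of the 8 genes with earlier results known limits this contrast too. On the same arrays 8 of 11 neutrophil and 2 of 8 monocyte markers fell. Both knockdowns were set against the same 3 EV arrays, so the 2 sets of changes share their controls.

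For S100a9 the Pu.1 KD arrays read 3.21, 3.68 and 3.26, all more than a log2 unit below the lowest EV array. The change was -2.29 (SE 0.18, adjusted p 0.00137, -2.56 to -1.91 within slides). S100a8 read 0.25, 0.95 and 0.96 in Pu.1 KD. These too lay below every EV array, and the change was -1.80 (SE 0.24, adjusted p 0.00871, -2.16 to -1.61 within slides).

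S100a4 read 4.67, 4.75 and 4.74 in Pu.1 KD, a change of -0.97 (SE 0.14, adjusted p 0.0112, -1.13 to -0.85 within slides), and the groups did not overlap. This call was lost without any 1 of the 3 Pu.1 KD arrays, with an adjusted p of 0.0643 without replicate 1, 0.0514 without replicate 2 and 0.0550 without replicate 3. It was also lost with scaling to the median (0.0882). S100a6 read 5.13, 5.35 and 5.23 in Pu.1 KD, below all EV arrays, a change of -0.72 (SE 0.15, adjusted p 0.0429, -0.79 to -0.59 within slides). Its call was lost in 12 of 20 other settings, among them leaving out any array other than Gata2 KD replicate 1 (adjusted p from 0.0510 to 0.186), although the direction was downward in all 20. Of the 4 genes lowered, only S100a9 was called in every setting tried, and the call of S100a8 was lost in 1 of the 20.

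The other 4 genes were not called in Pu.1 KD. S100a11, raised in Gata2 KD, read 1.69, 2.03 and 2.06 in Pu.1 KD, a change of -0.16 (95% interval -0.51 to 0.19, adjusted p 0.882) with overlapping groups. S100a10 changed by 0.09 (-0.27 to 0.45, adjusted p 0.978), also with overlap. S100a13 read 3.22, 3.53 and 3.39 and S100a1 read 2.73, 2.88 and 2.56 in Pu.1 KD, all above the EV arrays of the same gene. Their changes of 0.43 (0.09 to 0.76, adjusted p 0.239) and 0.35 (-0.001 to 0.71, adjusted p 0.406) did not pass the threshold. In all, 6 of the 8 genes had groups that did not overlap in this comparison, against 17.3% of all tested probes.

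**Figure D2:**
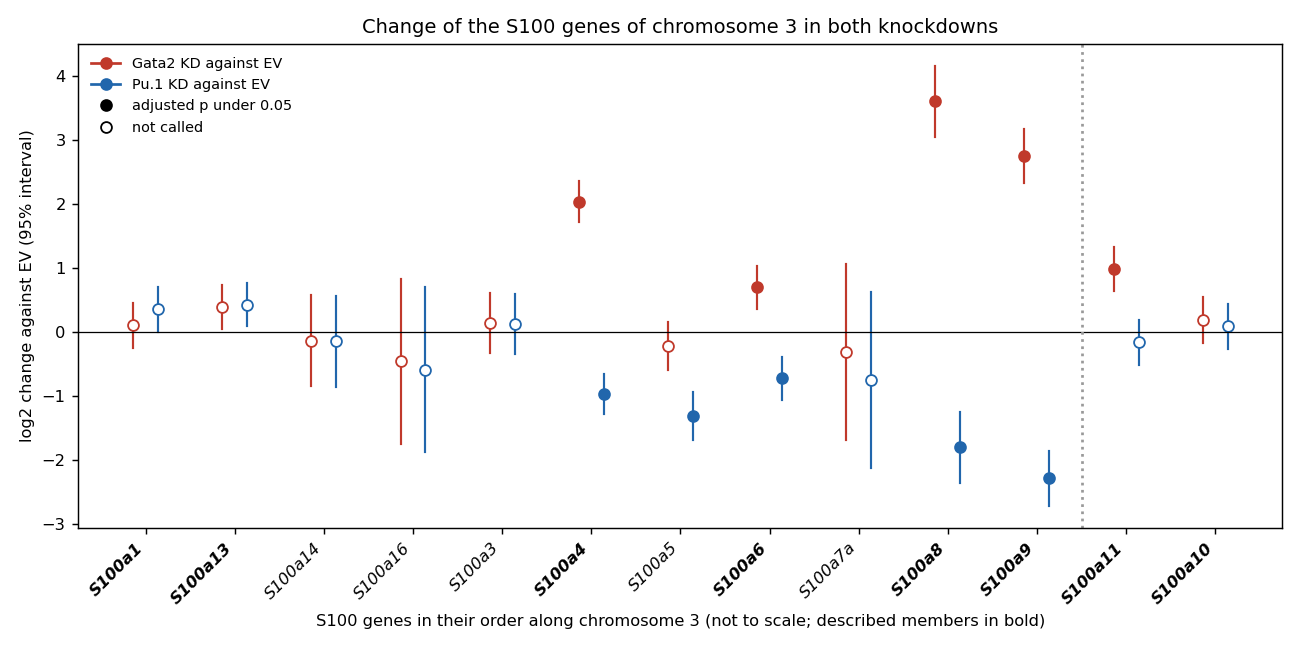
Log2 change against EV, with the 95% interval of the limma fit (n = 3 arrays per group), for the S100 genes measured on chromosome 3 in their order along the chromosome, in Gata2 KD and in Pu.1 KD. Filled points passed an adjusted p of 0.05. Between S100a4 and S100a9 filled points lie above 0 for Gata2 KD and below 0 for Pu.1 KD, and wide intervals belong to dim probes such as S100a7a.

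The knockdowns were also compared with each other. The log2 differences involve no EV array, but their SE and adjusted p rest on a spread estimated from all 9 arrays. S100a8 stood 5.40 log2 units higher in Gata2 KD than in Pu.1 KD (SE 0.24, adjusted p 4.86e-06) and S100a9 stood 5.04 higher (SE 0.18, adjusted p 2.27e-06). The corresponding differences were 3.001 for S100a4, 1.42 for S100a6 and 1.15 for S100a11, with SEs of 0.14, 0.15 and 0.15 and adjusted p of 5.53e-06, 0.000436 and 0.00175. These 5 genes were called in every other setting as well, and none of their groups overlapped. Over all tested probes 4.86% were called higher, 4.77% lower, and 25.8% had groups that did not overlap. S100a1 differed by -0.25 (95% interval -0.61 to 0.10), S100a10 by 0.10 (-0.26 to 0.45) and S100a13 by -0.03 (-0.37 to 0.30), none of which was called (adjusted p 0.533, 0.990 and 0.9999).

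Slide was also fitted as a block, and this left the changes as they were and gave 5 genes called in Gata2 KD and 4 in Pu.1 KD. The plot of adjusted p by setting shows how far each call lay from the threshold. In Gata2 KD S100a8, S100a9 and S100a4 had an adjusted p of at most 0.00247 in any of the 20 other settings and S100a11 one of at most 0.0414. In Pu.1 KD that of S100a9 was at most 0.0159.

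**Figure D3:**
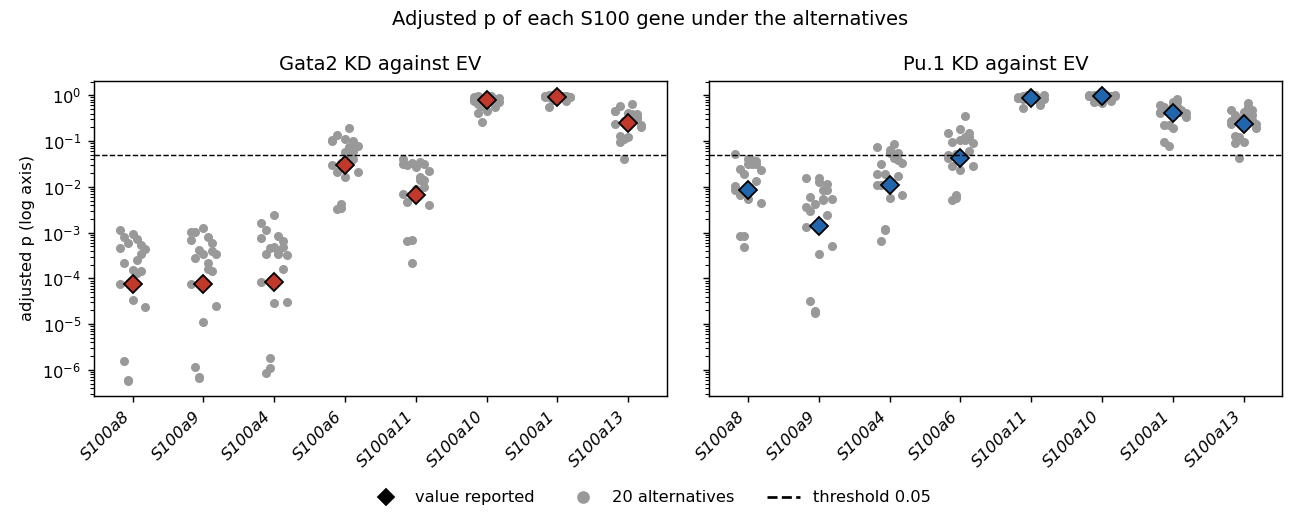
Adjusted p (log axis) of each of the 8 S100 genes in Gata2 KD and in Pu.1 KD against EV, as reported (diamonds) and in 20 other settings of the processing or with 1 array left out (gray points). The dashed line is the threshold of 0.05. In Gata2 KD 4 genes stay below the line in every setting, and in Pu.1 KD S100a9 alone does. S100a4 and S100a8 lie on both sides of it in Pu.1 KD, and S100a6 does so in both comparisons. S100a13 falls below it in both comparisons, only with the deposited log2 values.

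The rest of the S100 family was measured by 7 further genes with a named probe (S100a3, S100a5, S100a7a, S100a14, S100a16, S100b and S100g), listed together with S100pbp, which is named for binding an S100 protein but is not one. The mean log2 level of these 8 was low, at -3.28 to -2.09 in EV, -3.21 to -2.79 in Gata2 KD and -3.67 to -3.06 in Pu.1 KD. Between 6 and 8 of them were well above background on an array, so a missing call is weak evidence of no change. None of these 8 was called in Gata2 KD by limma (0 at an unadjusted p under 0.05 as well), with a median change of -0.18. In Pu.1 KD 1 was called lower and none higher (2 at an unadjusted p under 0.05), with a median of -0.62. That median was -0.15 with normexp background correction and -0.18 with the deposited log2 values. The called gene was S100a5, which lies between S100a4 and S100a6. It read 0.50 ± 0.13 in EV, -0.81 ± 0.16 in Pu.1 KD and 0.29 ± 0.22 in Gata2 KD, a change of -1.31 in Pu.1 KD (SE 0.16, adjusted p 0.00656) and of -0.21 in Gata2 KD (adjusted p 0.739). S100a3, on the other side of S100a4 and beyond S100a2, changed by 0.15 in Gata2 KD (adjusted p 0.927) and 0.13 in Pu.1 KD (adjusted p 0.970). S100a2 was in none of the lists.

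Genes whose proteins work with S100 proteins were described by role. Of 11 intracellular partners, 3 rose in Gata2 KD and none fell, and in Pu.1 KD limma called 0 (1 at an unadjusted p under 0.05), or 1 lower with slide as a block. Anxa2, which encodes the annexin that S100A10 joins, rose by 0.93 in Gata2 KD (adjusted p 0.0488) and had a change of -0.88 in Pu.1 KD (adjusted p 0.0882). Anxa1 rose by 0.89 (adjusted p 0.00885) and Ahnak, a large scaffold bound by the S100A10 and annexin A2 complex, by 1.99 (adjusted p 0.00192), while Anxa11 changed by 0.14 (adjusted p 0.925). With scaling to the median only 1 of these partners was called in Gata2 KD.

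Receptors for released S100 proteins were mostly not called. Of 7, limma called 0 in Pu.1 KD (0 at an unadjusted p under 0.05) and 1 in Gata2 KD, which was lower. Tlr4 changed by 0.27 in Gata2 KD (adjusted p 0.698) and -0.29 in Pu.1 KD (adjusted p 0.712), its coreceptor Ly96 by 0.15 and -0.24 (adjusted p 0.855 and 0.683), and Ager, which encodes RAGE, by -0.04 and 0.12 (adjusted p 0.992 and 0.9997). The called receptor was Mcam, singled out after its values were seen. Its level was -1.62 ± 0.35 with EV and -3.22 ± 0.13 with Gata2 KD, a change of -1.60 (SE 0.19, adjusted p 0.00174).

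The factors listed for their part in myeloid S100 expression were Spi1, Cebpa, Cebpb, Cebpd and Cebpe. Cebpe had no named probe on the array, which left 4. In Gata2 KD 3 of the 4 rose and in Pu.1 KD 2 fell, or all 4 with slide as a block and with the deposited log2 values. Spi1 rose by 1.39 (adjusted p 0.00120) in Gata2 KD, Cebpb by 1.11 (adjusted p 0.0340) and Cebpd by 3.22 (adjusted p 7.40e-05), while Cebpa changed by 0.43 (adjusted p 0.181). In Pu.1 KD Spi1, the target, fell by 1.73 and Cebpa by 0.81 (adjusted p 0.00178 and 0.0257), and Cebpb and Cebpd had changes of -0.73 and -0.91 that were not called (adjusted p 0.205 and 0.0730).

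As lists, neutrophil and monocyte markers moved in the same direction as S100a8 and S100a9 in both knockdowns. Erythroid and T and B cell markers did not. Mast cell markers moved the other way in Gata2 KD (median change -1.51) but downward, as S100a8 and S100a9 did, in Pu.1 KD (median -0.70). The part of any list in the S100 changes was not tested. In bulk RNA, more cells of a type and more RNA per cell cannot be told apart. Of 11 neutrophil markers (none an S100 gene), 10 rose in Gata2 KD and 8 fell in Pu.1 KD. Their summed level, in multiples of the 75th percentile of the array and so weighted toward bright probes, ran from 185.3 to 210.5 in EV, from 794.9 to 877.7 in Gata2 KD and from 95.5 to 110.2 in Pu.1 KD, and all 11 were well above background on every array. Mpo, Elane, Prtn3 and Ctsg, which encode enzymes of the primary granules, rose by 3.08, 3.05, 2.95 and 0.96 in Gata2 KD. In Pu.1 KD Mpo and Prtn3 fell by 2.81 and 1.46, and Elane and Ctsg had changes of -0.72 and -0.51 that were not called (adjusted p 0.0780 and 0.165).

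Of 8 monocyte and macrophage markers, 7 rose in Gata2 KD and 2 fell in Pu.1 KD. The summed level was 4.92 to 5.64 in EV, 41.6 to 46.5 in Gata2 KD and 2.60 to 2.98 in Pu.1 KD. The marker Mrc1 was not well above background on any EV or Pu.1 KD array. It passed the filter on dim signal only through the Gata2 KD arrays. Its place in both counts, in the summed level and in the mean level of the list thus depends on that group. Mast cell and basophil markers went the other way in Gata2 KD, where 5 of 7 fell (summed level 101.2 to 117.7 in EV, 17.7 to 19.1 in Gata2 KD), and in Pu.1 KD 2 fell and 1 rose (66.0 to 74.1). Of 7 erythroid markers 2 fell in Gata2 KD and 2 rose in Pu.1 KD, with summed levels of 217.0 to 306.6 in EV, 126.4 to 192.8 in Gata2 KD and 239.2 to 283.2 in Pu.1 KD. That sum rests mostly on Hbb-bt, noted after its values were seen, which was called in neither knockdown (adjusted p 0.124 in Gata2 KD and 0.9997 in Pu.1 KD). The mean log2 level of the list, which weights its genes equally, was -0.19 to 0.29 in EV, -0.59 to -0.36 in Gata2 KD and 0.21 to 0.49 in Pu.1 KD. Of 5 T and B cell markers limma called 0 in either knockdown (0 at an unadjusted p under 0.05), with summed levels of 1.70 to 2.52, 1.74 to 2.65 and 1.72 to 2.60.

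The 8 progenitor markers, Kit and Cd34 among them, were well above background on every array. In Gata2 KD 3 rose and 1 fell, and in Pu.1 KD 1 rose and 2 fell. The summed level was 53.3 to 67.3 in EV, 74.5 to 82.4 in Gata2 KD and 53.0 to 56.3 in Pu.1 KD. Kit, the stem cell factor receptor, rose in both, by 0.75 in Gata2 KD and 1.41 in Pu.1 KD, while Cd34 rose by 2.17 in Gata2 KD and fell by 0.92 in Pu.1 KD. With scaling to the median no progenitor marker was called lower in either knockdown, and 1 was called higher in each.

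**Figure D4:**
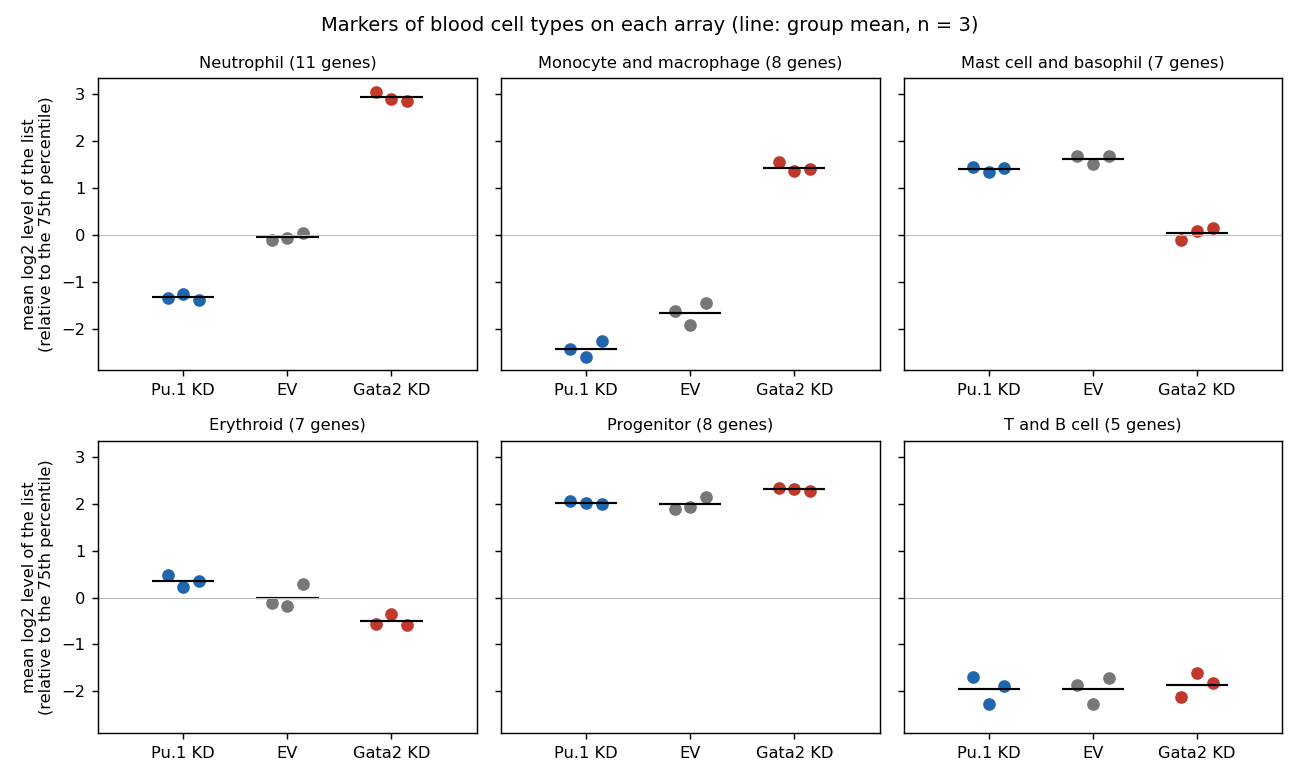
Mean log2 level of 6 lists of cell type markers on each array, relative to the 75th percentile of the array, by group, with the group mean as a line (n = 3). Neutrophil and monocyte markers step upward from Pu.1 KD through EV to Gata2 KD as S100a8 and S100a9 do, mast cell markers are lower in Gata2 KD, and T and B cell markers overlap between the groups.

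The 3 genes most like each S100 gene were found by the Pearson correlation of their levels over the 9 arrays, among 14489 genes well above background on all of them. The 9 points belong to the 3 groups, and the values are a description with no test. S100a8 was closest to Camp (cathelicidin of neutrophil granules, r of 0.997), Hps3 and Ceacam1, and S100a9 to Mpo (myeloperoxidase, 0.998), Anxa3 and Ebi3. S100a4 followed Lyz2 (lysozyme, 0.998), Ifi27l2a and Pglyrp1, and S100a6 followed Csta1 (0.993), Prss57 and Ebi3. For S100a11 the closest genes were Scnn1a (0.986), Tfec and Epsti1. Scnn1a, picked for following S100a11 over these arrays, changed by 2.91 in Gata2 KD and -0.44 in Pu.1 KD, which is no separate result.

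The genes that were called in neither knockdown had other neighbors. S100a13 was closest to Pgghg (r of 0.960), Creb5 and Susd3, S100a1 to Fam229b (0.974), Mrm1 and Cd1d1, and S100a10 to Rps2 (0.939), Herc3 and the ribosomal protein gene Rps16. None of these 9 was called in either knockdown, which follows largely from choosing them for likeness to genes that were not called. Among the S100 genes themselves, S100a4, S100a6, S100a8, S100a9 and S100a11 correlated with each other at 0.90 to 0.99 over the 9 arrays. The genes with a shared start region, S100a1 and S100a13, correlated at 0.75. That value was not particular to them, as S100a13 and S100a10, in different stretches of the chromosome, correlated at 0.72.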

How the data were processed

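The authors deposited, for each of the 9 arrays, the intensity values of Agilent Feature Extraction 10.1.1.1 (the processed signal has the background removed and spatial trends corrected on each array, with no step between arrays) and 1 table of log2 values whose processing is not stated in detail, used here as an alternative only. The array design is annotated to mm8. The background step weighs most on dim spots, and a change in a dim probe is less sure. Here, the 47 to 96 outlier spots flagged on each array were dropped, spots of a probe were averaged as log2 processed signal, and the 75th percentile of each array was subtracted. A probe was tested when well above background on at least 3 of 9 arrays with 2 values per group, and 36585 of 41174 were. Accessions without versions were matched to RefSeq gene names of GRCm38.p6, which named 23374 probes.

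Groups came from sample titles. The comparisons used R 4.3.3 and limma 3.58.1 (a fit of 3 group means to 9 arrays, eBayes, two-sided, Benjamini-Hochberg over all tested probes, threshold 0.05), tested on simulated data. The alternatives were a replicate block, a slide block, normexp with an offset of 50 on the median signal, scaling to the median, quantile normalization, no filter, a filter on all 9 arrays, outlier spots kept, trend and robust eBayes, the authors' log2 table, a fit of only the groups compared, and each array left out. For counts, every tested probe was also counted, which is the same count with 1 probe per gene. Named were the 8 genes, the targets, the 3 genes most correlated with each member and up to 4 members of each list in written order. The members and lists were chosen with earlier results of these data known. The probe sequences and protein sequences were not used here. A further gene list is not reported here.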

Additional observations from a re-analysis of the deposited data

How the results depend on the processing

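The 24 changes of single S100 genes kept their direction in all 20 alternatives, except that of S100a13 between Gata2 KD and Pu.1 KD (-0.03), which ran from -0.11 to 0.044 with 1 array left out and was above 0 without Gata2 KD replicate 3 (0.044) or Pu.1 KD replicate 2 (0.040). The count of S100 genes called between the knockdowns stayed at 5. That in Gata2 KD against EV was 4 to 6, or 4 to 5 with 1 array left out. The 6 included S100a13, with the deposited log2 values. The count in Pu.1 KD against EV depended on the setting, as did that of all probes called (in brackets). It was 4 as reported (986), 1 with the replicate block (234) and 2 with scaling to the median (377) or only the groups compared (223). It was 2 to 4 with 1 array left out, 4 with the slide block (1875) and 5 with the deposited values (1785), which called S100a13 higher. The causes were not tested. Under the replicate block the call of S100a8 in Pu.1 KD was lost (adjusted p 0.0534), with S100a4 (0.0725) and S100a6 (0.151), and in Gata2 KD that of S100a6 (0.104). The replicate numbers did not pair the arrays: deviations from the group means of arrays with the same number correlated between -0.55 and 0.65 (median 0.07). Those of arrays on the same slide correlated between -0.04 and 0.72 (median 0.48), and on different slides between -0.63 and 0.35 (median -0.32). The arrays of a slide were thus alike, and the reported p-values come from a fit without slide. That fit called 1902 probes in Gata2 KD against EV, and the slide block called 2886. Scaling to the median moved all changes in Gata2 KD by 0.045, and of the probes called there 69.7% were higher in place of 57%. The other lists were counted under 5 of the settings. Scaling to the median lowered their counts: in Pu.1 KD 4 neutrophil markers were lower in place of 8, 1 monocyte marker in place of 2, 0 mast cell markers in place of 2, 0 progenitor markers in place of 2 and 1 factor in place of 2, and 1 erythroid marker was higher in place of 2. In Gata2 KD it left 1 intracellular partner higher in place of 3, 2 factors in place of 3, 1 progenitor marker in place of 3 and 9 neutrophil markers in place of 10, with 1 erythroid marker lower in place of 2 and 0 progenitor markers in place of 1. Other settings mostly raised counts. In Pu.1 KD the slide block and the deposited log2 values each called 4 factors lower in place of 2 (3 with normexp), and these settings, normexp and quantile normalization each called 1 partner lower in place of 0 and 3 mast cell markers in place of 2. Monocyte markers lower and erythroid markers higher there went from 2 to 3 with the slide block, normexp and the deposited values, while neutrophil markers lower were 10 with the deposited values, 9 with quantile normalization and 6 with normexp. In Gata2 KD progenitor markers lower went from 1 to 2 with normexp and 3 with the deposited values, erythroid markers lower went from 2 to 3 under each setting but scaling to the median, mast cell markers lower from 5 to 6 with the slide block, and neutrophil markers higher from 10 to 11 with the deposited values. The number of arrays, 3 per group, limits what could be called.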
